A study of Mus musculus with 6 samples.

Results

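Chaperones and co-chaperones were examined in dorsal root ganglia, the paired clusters beside the spinal cord that hold the cell bodies of sensory neurons. Members were taken by gene symbol: the Hspa, Hspb, Hspd, Hspe, Hsph and Hsp90 series, J proteins of classes A, B and C (Dnaja, Dnajb, Dnajc), Bag1 to Bag6 and the heat shock factors Hsf1 to Hsf5. Of 55809 gene symbols, 85 matched, and the 80 with at least 10 counts in at least 3 pools were kept. By symbol, 27 were Hsp genes, 43 were Dnaj genes, 6 were Bag genes and 4 were heat shock factors. The symbols left out were Hsf3, Dnajb8, Dnajc5g, Hspb3 and Hspb9. At the edge of the threshold, Dnajb7 was inside with 6, 10 and 7 counts in control pools and 11, 15 and 4 in stress pools. Hspb3 was outside, with 5, 3 and 24 counts in control pools and 5, 4 and 0 in stress pools.

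The ganglia came from 8-week-old C57BL6J offspring with no transgene or further treatment named in the labels. Offspring of dams restrained in tubes under a bright light (prenatal stress, 3 pools) were set against offspring of undisturbed dams (control, 3 pools). Each pool held 3 mice by its title. The series design gives 9 mice per group, which fits 3 such pools, while the protocol label gives 3, and litter and the sex of a pool are not given. The stress took place from E13 to E18 by the protocol label and from E13.5 to E18.5 by the series design, in sessions of 30 min given 3 times a day. Pools were called replicates by the labels, so p-values measure the spread between pools, not between litters.

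Gene counts were 65.0 to 87.4 M in control pools and 51.7 to 77.6 M in stress pools. Summed levels of 8 sensory neuron markers, such as Tubb3, Prph and Avil, were 9940 to 10192 CPM in control pools and 9339 to 9832 CPM in stress pools, where CPM is a gene's counts scaled to a fixed library size (counts per M, with normalization factors). The neuron sums did not overlap between groups: 6 of the 8 log2 fold changes were negative, with a median of -0.03 and none passing the test over all genes, and their part in the members' differences was not tested. Schwann cell markers summed to 6487 to 8615 CPM, with overlap. Satellite glia markers summed to 2546 to 2734 CPM in control pools and 2249 to 2375 CPM in stress pools, without overlap, and are taken up again with Hspb8. Endothelial and mural cell markers (384 to 446 CPM) and macrophage markers (58.0 to 78.4 CPM) overlapped. Markers of spinal cord and of erythroid and neutrophil cells varied widely between pools of both groups, also with overlap. Those of spinal cord and oligodendrocytes summed to 49.0, 253 and 224 CPM in control pools and 55.5, 344 and 96.9 CPM in stress pools. Those of erythroid and neutrophil cells summed to 254, 324 and 542 CPM against 110, 458 and 797 CPM. Their part in the members' values was not tested. Control pool 3 stood apart in skeletal muscle markers, with 2772 CPM over 11 markers against 77.7 to 119 CPM in the other 5 pools. In those 5 pools Pvalb alone gave 54.3 to 62.2 CPM, more than any other marker of the list, so the sum there rests largely on 1 gene. Control pool 3 had 158 CPM of Pvalb. Hspb7, Hspb6, Hspb2, Hspb8, Hspa1l and Cryab are given with and without control pool 3. In bulk tissue, fewer cells of a type and less RNA per cell cannot be told apart.

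Chaperones bind unfolded or aggregating proteins and let them fold, be moved or be degraded. The Hsp70 proteins work as a cycle: J proteins deliver the client and start ATP hydrolysis, and exchange factors of the Hsp110 and Bag families release the nucleotide and the client. Hsp90 then matures kinases and steroid receptors, small heat shock proteins hold clients without ATP, and the endoplasmic reticulum and mitochondria have their own sets. Heat and other protein-damaging stress activate Hsf1, which binds heat shock elements in the promoters of inducible members, while stress of the endoplasmic reticulum acts through other factors. Sensory neurons have very long axons whose proteins must stay soluble far from the cell body.

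Short stretches before the start sites are shown first, for members that are later followed as a heat-inducible list. That list was taken from general knowledge of the genes, not from these letters. The core heat shock element searched was GAANNTTC, which reads the same on both strands, in the 250 bases before each start site in the RefSeq table for build GRCm38.p6. Of the 80 members, 63 were in that table, and 10 of them held the element (15.9%), compared with 7.73% of 27025 genes. A match is a description of letters, not of a bound site. In the windows below the element is in capitals with 10 bases on each side, written 5′ to 3′ along the gene's own strand, for the best known inducible members that hold it.
Hspa1a (chr17:34972243-34972270, minus strand): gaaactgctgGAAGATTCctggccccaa
Hspa1b (chr17:34959325-34959352, minus strand): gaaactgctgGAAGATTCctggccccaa
Hspb1 (chr5:135887792-135887819, plus strand): ttcaacaagaGAAGTTTCcagatggggg
Hspb1, the other match (chr5:135887812-135887839, plus strand): gatgggggcaGAACCTTCctggccccgc
Dnaja1 (chr4:40722334-40722361, plus strand): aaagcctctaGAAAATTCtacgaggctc
Hspd1 (chr1:55088054-55088081, minus strand): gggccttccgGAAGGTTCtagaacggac
Hspe1 (chr1:55088054-55088081, plus strand): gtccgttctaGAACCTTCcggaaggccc
Hspd1 and Hspe1, which encode the mitochondrial chaperonin and its lid, hold the same site read from opposite strands. The other members with a match were Dnaja4, Dnajb6, Dnajc27 and Hspb6. Of the 11 members of the heat-inducible list, Dnajb1, Hsph1 and Bag3 had no match in the window, and Hspa8 and Hsp90aa1 were not in the table.

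The endoplasmic reticulum stress element, CCAAT and CCACG with 9 bases of any kind between them, on either strand, was found in 3 of the 63 members (4.76%) and in 0.130% of the 27025 genes. This search was added after the data were seen, and the shares describe letters and are no test of enrichment. The 3 members are all chaperones of that compartment, and its other members in the table, such as Dnajb9 and Dnajb11, had no match in this window. The matches are shown with the fixed letters in capitals.
Hspa5 (chr2:34772025-34772043, plus strand): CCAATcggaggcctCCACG
Hsp90b1 (chr10:86705638-86705656, minus strand): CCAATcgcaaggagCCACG
Hsp90b1, the other match (chr10:86705533-86705551, minus strand): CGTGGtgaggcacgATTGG
Dnajc3 (chr14:118937827-118937845, plus strand): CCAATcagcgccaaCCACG

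Hspa1a and Hspa1b, the heat-inducible Hsp70 genes, are neighbouring near-copies, and the whole 250 bases before their start sites are shown because their levels are compared below. Capitals mark the heat shock element and the bases that differ.
Hspa1a (chr17:34972157-34972406, minus strand): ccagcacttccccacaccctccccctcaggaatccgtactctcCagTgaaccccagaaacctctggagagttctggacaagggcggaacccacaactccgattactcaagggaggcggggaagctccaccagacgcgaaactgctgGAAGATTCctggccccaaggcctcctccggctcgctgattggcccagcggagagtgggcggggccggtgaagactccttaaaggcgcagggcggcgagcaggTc
Hspa1b (chr17:34959239-34959488, minus strand): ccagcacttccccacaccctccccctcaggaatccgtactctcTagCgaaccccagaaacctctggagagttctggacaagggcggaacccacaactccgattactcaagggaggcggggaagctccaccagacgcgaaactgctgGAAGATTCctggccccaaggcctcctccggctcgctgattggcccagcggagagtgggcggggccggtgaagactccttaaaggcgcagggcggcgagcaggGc
The windows were 98.8% identical and differed at 3 positions, C44T, T47C and T249G, with the Hspa1a base first and positions counted from 1 at the 5′ end of the window. Their transcripts were 99.2% identical over 2201 aligned bases.

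After prenatal stress, most chaperone transcripts of the adult ganglion stood close to their control levels. Of the 79 members tested, 0 passed edgeR's quasi-likelihood test at an adjusted p under 0.05, against 0.129% of all 20146 genes tested (0.0844% higher and 0.0447% lower). DESeq2 called 1 member, Hspa1b, against 1.93% of the genes to which it gave an adjusted p. At an unadjusted p under 0.05 in edgeR, 4 members were higher and 5 were lower, together 9 of 79, where 11.1% of all genes lay under that value (6.01% higher and 5.11% lower). All 3 stress pools lay above all 3 control pools for 10 members, and below them for 5, against 9.33% and 8.76% of all genes tested. None of these counts stood far from the whole table's.

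The differences were also small. Log2 fold changes, stress minus control, were positive for 37 members and negative for 42, with a median of -0.01 against 0.01 over all genes. The median size of a difference was 0.07, against 0.08. For 69 of 79 members (87.3%), the 95% interval of the log2 fold change lay inside -0.5 to 0.5, compared with 65.7% of all genes. These shares were not matched for level. The 10 with wider intervals were Hspa1a, Hspa1b, Hspa1l, Hsf5, Dnajb3, Dnajb13, Dnajc22, Dnajc5b, Hspb6 and Hspb7, and each averaged below 10 CPM over the 6 pools.

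**Figure D1:**
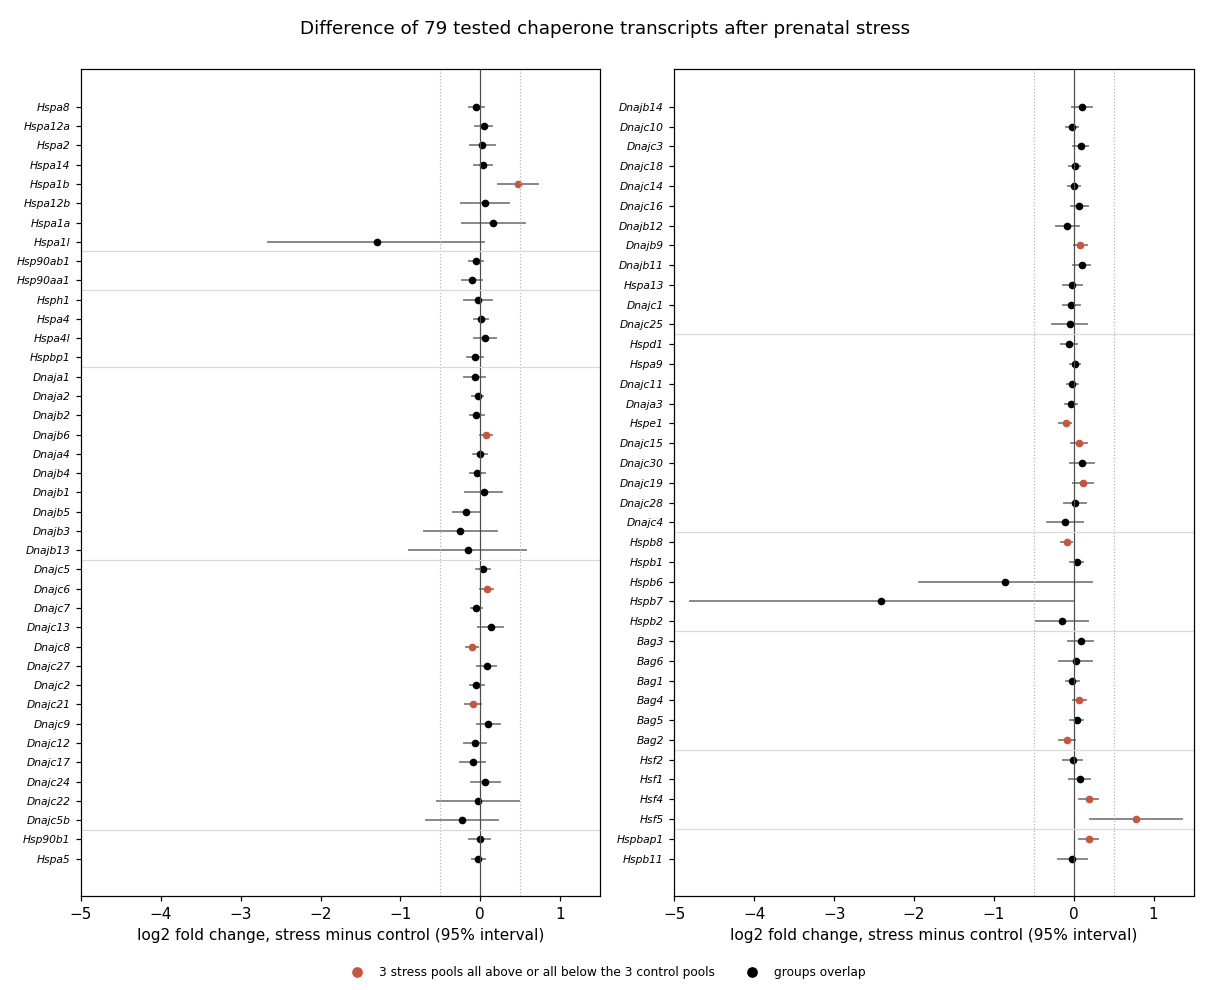
Log2 fold change (stress minus control) of the 79 tested members with its 95% interval, in 2 panels ordered by role, with dotted lines at -0.5 and 0.5. Red points are the 15 members whose 3 stress pools all lie on one side of the 3 control pools; most intervals stay between the dotted lines, and Hspb7 and Hspa1l have the widest.

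Together the members took 1.50% to 1.58% of the gene counts in each pool. Hsp90ab1, Hspa8 and Hsp90aa1 alone gave 51.6% to 53.2% of the members' sum. The sum of all members was 15550, 15800 and 15106 CPM in control pools and 15055, 14944 and 15376 CPM in stress pools, so the groups overlapped. Of the 80 members, 3 averaged above 1000 CPM, 25 above 100, 61 above 10 and 6 below 1. Within a group, pools differed little: the SD of log2 CPM had a median of 0.06 over members, was at most 0.1 for 63 and exceeded 0.2 for 10.

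**Figure D2:**
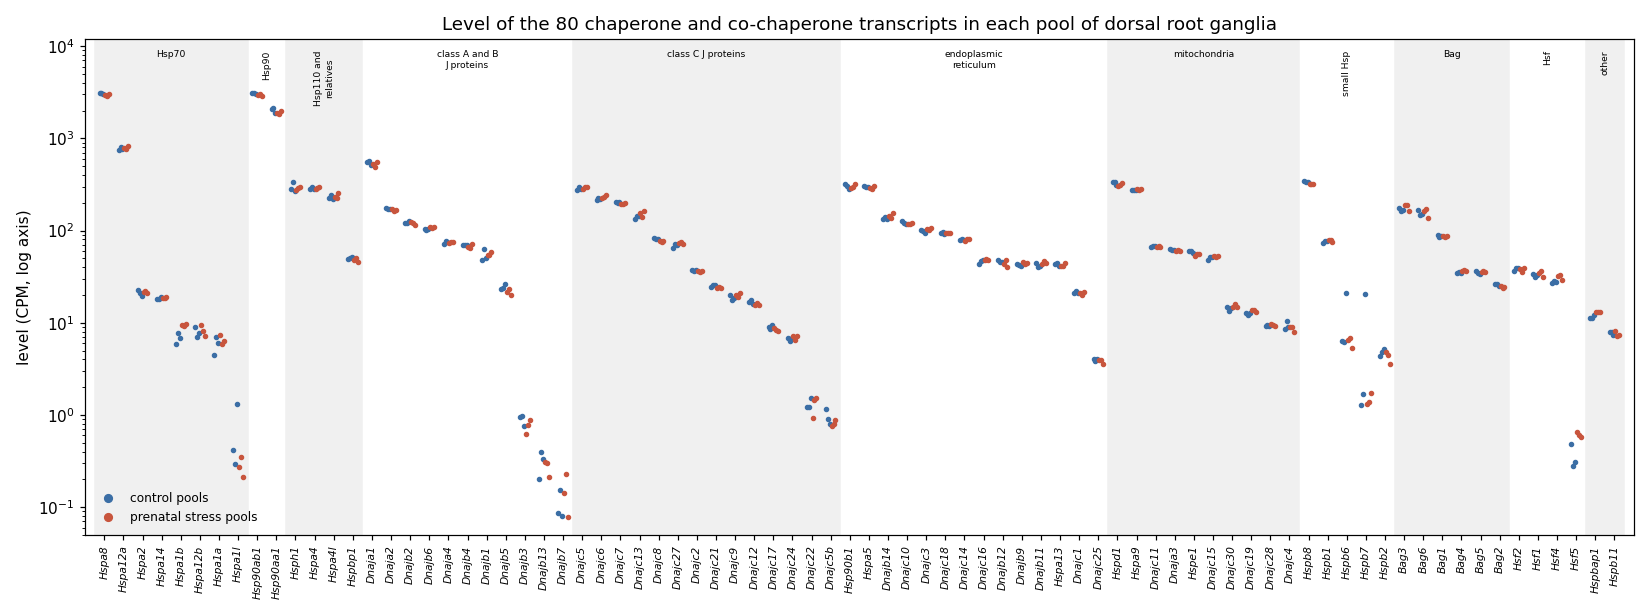
Level of each of the 80 members in each pool (CPM, log axis), grouped by role and ordered by mean within a role, with control pools in blue and stress pools in red. Hspa8, Hsp90ab1 and Hsp90aa1 lie above 1000 CPM, and the 6 points of most genes sit on top of each other, apart from single control points of Hspb6, Hspb7 and Hspa1l.

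The heat shock factors are the transcription factors that control inducible chaperones. Hsf1, the main activator, stood at 33.6, 31.5 and 32.8 CPM in control pools and 35.0, 36.5 and 31.7 CPM in stress pools. Hsf2, which pairs with Hsf1, stood at 36.2, 39.2 and 38.9 CPM against 38.6, 35.8 and 39.0 CPM. Neither separated the groups, and their log2 fold changes were 0.08 ± 0.06 (SE, adjusted p = 0.672) and -0.01 ± 0.05 (adjusted p = 0.957).

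Hsf4, known for its role in the lens, measured 27.1, 28.1 and 27.4 CPM in control pools and 32.0, 32.8 and 29.4 CPM in stress pools. Every stress pool was above every control pool. Its log2 fold change was 0.19 ± 0.05 (SE, 95% interval 0.07 to 0.31), and it did not pass the test over all genes (adjusted p = 0.294). Hsf5, a factor of male germ cells, was close to the floor at 34, 18 and 27 counts in control pools and 51, 40 and 30 in stress pools. On the CPM scale those were 0.490, 0.277 and 0.310 against 0.659, 0.607 and 0.581, without overlap. Its log2 fold change of 0.78 ± 0.25 (interval 0.20 to 1.36) did not pass either (adjusted p = 0.366). Of 6 markers of ciliated and testis cells, Prm2 and Tnp1 had no count in any pool, Prm1 was found in control pool 3 alone at 0.0115 CPM, Tekt1 and Dnah5 stayed below 1 CPM, and Foxj1 stood at 21.6 to 24.9 CPM. The summed level of the 6 was 22.6 to 24.7 CPM in control pools and 23.5 to 25.4 CPM in stress pools.

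Among cytosolic and nuclear Hsp70 genes, Hspa8 was the most abundant. It encodes the constitutive Hsp70, which also strips clathrin from vesicles, and read 3077, 3092 and 3006 CPM in control pools and 2917, 2890 and 3056 CPM in stress pools. The ranges overlapped, and the log2 fold change was -0.05 ± 0.04 (interval -0.14 to 0.04, adjusted p = 0.667). Hspa12a, a distant Hsp70 relative, read 740, 813 and 773 CPM against 785, 773 and 826 CPM, again with overlap. The inducible genes were far lower in these counts, from which reads shared by Hspa1a and Hspa1b may be missing. Per kb of the longest annotated transcript, the level of Hspa8 was 952 CPM, that of Hspa12a was 137 CPM, and those of Hspa1b and Hspa1a were 2.92 and 2.08 CPM. Hspa2, Hspa12b and Hspa14 lay between Hspa12a and Hspa1a per kb, and their log2 fold changes were 0.02, 0.06 and 0.03.

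Hspa1b had the smallest p of all members. It read 5.88, 7.78 and 6.91 CPM in control pools and 9.40, 9.30 and 9.80 CPM in stress pools, so the groups were apart. The log2 fold change was 0.47 ± 0.11 (SE, 95% interval 0.22 to 0.72). It did not pass edgeR's test (adjusted p = 0.266) and passed that of DESeq2 (adjusted p = 0.0101). Hspa1a read 4.48, 6.95 and 6.07 CPM against 7.39, 5.92 and 6.29 CPM, with overlap. Its log2 fold change was 0.16 ± 0.17 (interval -0.23 to 0.56, adjusted p = 0.768).

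How the counter treated reads that match both near-copies is not given, so such reads may be split between them or missing from both. Their counts were also summed, an alternative added after the data were seen, which cannot restore missing reads. The sum was 10.4, 14.7 and 13.0 CPM in control pools and 16.8, 15.2 and 16.1 CPM in stress pools. The groups did not overlap, with control pool 2 next to stress pool 2. The log2 fold change of the sum was 0.34 ± 0.12 (interval 0.05 to 0.62). Neither edgeR (adjusted p = 0.392) nor DESeq2 (adjusted p = 0.151) called it. Hspa1b made up 56.7%, 52.8% and 53.2% of the sum in control pools and 56.0%, 61.1% and 60.9% in stress pools. Hspa1l, a germ cell Hsp70, read 0.418, 0.293 and 1.33 CPM against 0.271, 0.349 and 0.213 CPM and is taken up with muscle below.

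**Figure D3:**
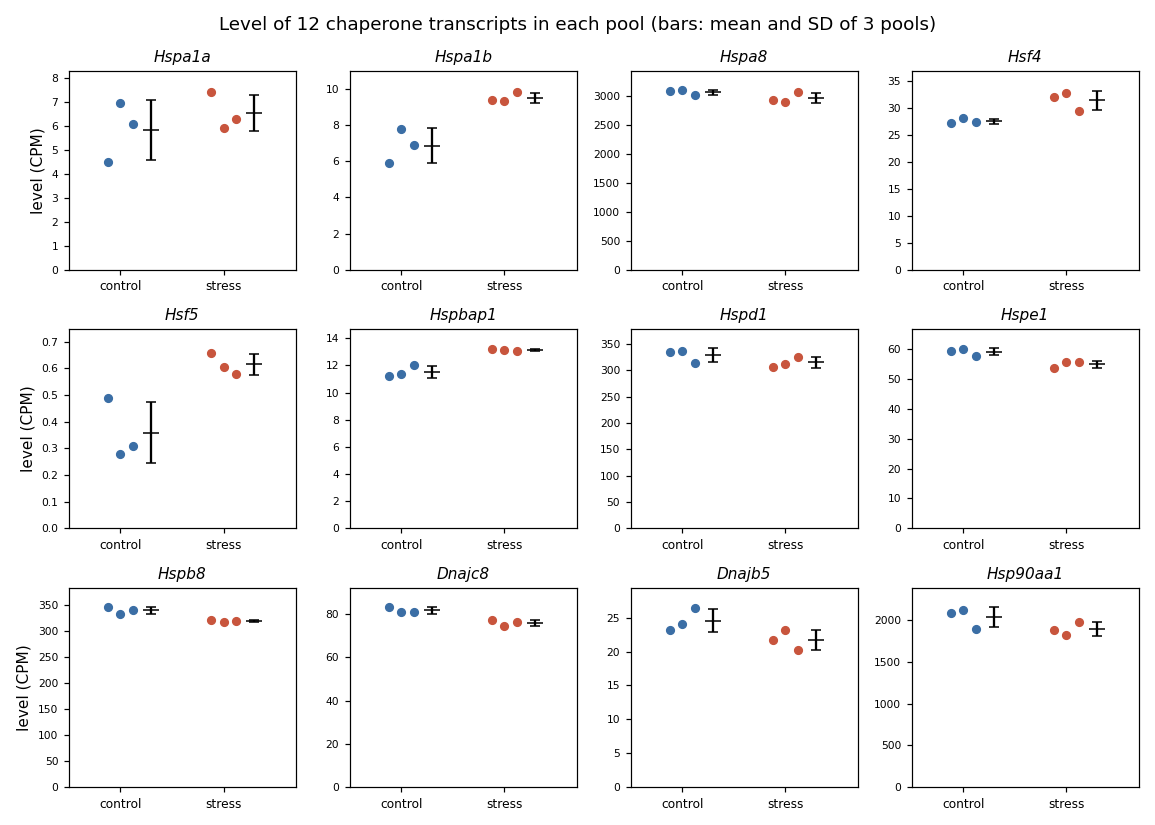
Level in CPM of 12 members in each control pool (blue) and stress pool (red), with the mean and SD of 3 pools as bars and every axis starting at 0. Hspa1b, Hsf4, Hsf5 and Hspbap1 have all stress points above all control points, Hspe1, Hspb8 and Dnajc8 have all below, and Hspa1a, Hspa8, Hspd1, Dnajb5 and Hsp90aa1 overlap.

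Cytosolic Hsp90 has a constitutive form, Hsp90ab1, and an inducible form, Hsp90aa1. Hsp90ab1 read 3106, 3132 and 2995 CPM in control pools and 2982, 3005 and 2893 CPM in stress pools. Hsp90aa1 read 2082, 2126 and 1898 CPM against 1884, 1819 and 1980 CPM. In each case the stress range reached into the control range. The log2 fold changes were -0.06 ± 0.04 (adjusted p = 0.607) and -0.10 ± 0.05 (interval -0.23 to 0.02, adjusted p = 0.522).

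The exchange factors of the Hsp110 branch were Hsph1, Hspa4 and Hspa4l. Hsph1 read 285, 333 and 269 CPM in control pools and 277, 290 and 300 CPM in stress pools, and the high control pool was pool 2. Hspa4 read 285, 300 and 281 CPM against 284, 288 and 301 CPM. Log2 fold changes of this branch and of Hspbp1, another exchange factor of Hsp70, ran from -0.07 to 0.06.

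Of the Bag exchange factors, Bag3 directs Hsp70 clients to autophagy together with Hspb8. Bag3 read 176, 164 and 169 CPM in control pools and 189, 190 and 161 CPM in stress pools, so stress pool 3 was below all controls. Its log2 fold change was 0.09 ± 0.07 (adjusted p = 0.676). Bag6, which guards tail-anchored membrane proteins, read 167, 146 and 152 CPM against 164, 172 and 137 CPM. Bag4 was higher and Bag2, an inhibitor of the ligase Stub1, was lower without overlap, with log2 fold changes of 0.07 ± 0.03 and -0.09 ± 0.04. Neither passed (adjusted p = 0.497 and 0.486).

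J proteins were the most numerous members. Among those of classes A and B outside the organelles, 8 of the 10 tested had a negative log2 fold change and the median was -0.04. Dnaja1, a heat-inducible class A member, read 560, 571 and 517 CPM in control pools and 530, 491 and 550 CPM in stress pools. Dnaja2 read 174, 173 and 170 CPM against 171, 165 and 169 CPM. Dnajb1, the classical inducible Hsp40, read 48.5, 63.6 and 50.7 CPM against 54.9, 54.3 and 58.4 CPM, and control pool 2 was again the highest. Its log2 fold change was 0.04 ± 0.10 (adjusted p = 0.910).

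Dnajb5 was the class B member of smallest p. It read 23.2, 24.0 and 26.5 CPM in control pools and 21.8, 23.3 and 20.2 CPM in stress pools, and stress pool 2 lay just above control pool 1, with a log2 fold change of -0.18 ± 0.07 (interval -0.34 to -0.01, adjusted p = 0.437). Dnajb6, known for holding back protein aggregation, was higher without overlap at 104, 101 and 103 CPM against 109, 105 and 108 CPM, with a log2 fold change of 0.07 ± 0.03 (adjusted p = 0.479). Dnajb3 and Dnajb13 were below 1 CPM in every pool, and Dnajb7 had too few counts for the test.

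Class C J proteins include several with neuronal roles. Dnajc5, the cysteine string protein of synaptic vesicles, read 273, 294 and 282 CPM in control pools and 282, 293 and 293 CPM in stress pools. Dnajc6, or auxilin, recruits Hspa8 to clathrin coats and read 216, 223 and 219 CPM against 224, 231 and 240 CPM, higher without overlap by a narrow margin (log2 fold change 0.08 ± 0.04, adjusted p = 0.470). Dnajc13, which acts on endosomes, had a log2 fold change of 0.13 ± 0.07 with overlapping pools (adjusted p = 0.517).

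Dnajc8 associates with splicing factors. It read 83.5, 81.0 and 80.9 CPM in control pools and 77.1, 74.6 and 76.6 CPM in stress pools, with no overlap. The log2 fold change was -0.10 ± 0.03 (interval -0.18 to -0.03), and the gene did not pass over all genes (adjusted p = 0.358). Dnajc21, which serves ribosome assembly, read 24.5, 25.7 and 26.0 CPM against 23.6, 24.2 and 23.6 CPM, also without overlap (log2 fold change -0.09 ± 0.04, adjusted p = 0.468). The 14 members of this role had a median log2 fold change of -0.04.

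Small heat shock proteins were led by Hspb8, the partner of Bag3, which read 347, 333 and 340 CPM in control pools and 320, 318 and 318 CPM in stress pools. All stress pools were below all control pools, with a log2 fold change of -0.09 ± 0.03 (interval -0.16 to -0.02, adjusted p = 0.366). Per kb of transcript its level was 181 CPM, above that of Hspd1 (133 CPM) and of Hspb1 (82.4 CPM). Hspb1, or Hsp27, which protects sensory axons and is inducible by heat, read 73.7, 76.1 and 77.2 CPM against 79.5, 78.4 and 74.8 CPM (log2 fold change 0.04 ± 0.04, adjusted p = 0.772). The summed level of 6 satellite glia markers was 2546 to 2734 CPM in control pools and 2249 to 2375 CPM in stress pools, with all 6 log2 fold changes negative, 4 of 6 at an unadjusted p under 0.05 (5.11% of all genes were lower at that value) and none passing over all genes. Its part in the Hspb8 difference was not tested.

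Hspb7, Hspb6 and Hspb2 are small heat shock proteins of striated muscle. Hspb7 read 1.27 and 1.68 CPM in control pools 1 and 2, 20.5 CPM in control pool 3, and 1.33, 1.38 and 1.72 CPM in stress pools. Hspb6 read 6.33, 6.25 and 21.1 CPM in control pools against 6.49, 6.81 and 5.31 CPM. The high value of each was in control pool 3, the pool with high muscle markers. Myosin Myh4, for example, was at 710.6 CPM there and at 2.55 to 8.56 CPM elsewhere, and no marker of the list was at 0.

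With all pools, the log2 fold change of Hspb7 was -2.41 ± 1.02 (adjusted p = 0.449), and without control pool 3 it was 0.0008 ± 0.21 (adjusted p = 1.00). That of Hspb6 moved from -0.86 ± 0.46 (adjusted p = 0.537) to -0.02 ± 0.13 (adjusted p = 0.980), and that of Hspa1l from -1.30 ± 0.58 (adjusted p = 0.465) to -0.35 ± 0.33 (adjusted p = 0.795). Hspb2 read 4.31, 4.78 and 5.21 CPM against 4.85, 4.48 and 3.54 CPM, with a log2 fold change of -0.15 ± 0.14 that became -0.08 ± 0.16 without that pool. Hspb8 stayed at -0.09 ± 0.04 without it.

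**Figure D4:**
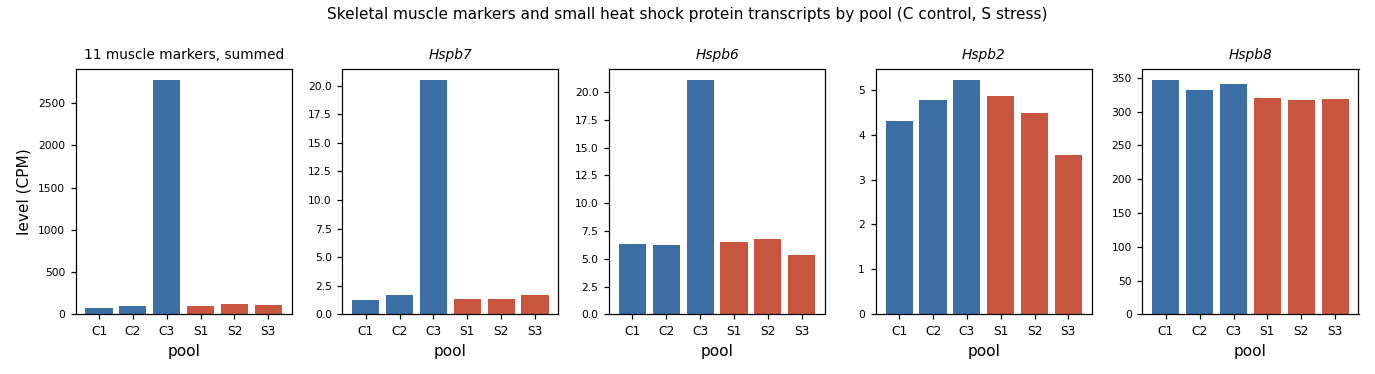
Summed level of 11 skeletal muscle markers and levels of Hspb7, Hspb6, Hspb2 and Hspb8 in each pool (CPM, axes from 0; C1 to C3 control in blue, S1 to S3 stress in red). Control pool 3 is high for the markers (2772 CPM), Hspb7 (20.5 CPM) and Hspb6 (21.1 CPM), while Hspb8 is level within each group.

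Chaperones of the endoplasmic reticulum stood close to their control levels. Hspa5, the Hsp70 of this compartment also called BiP, read 301, 298 and 294 CPM in control pools and 290, 281 and 304 CPM in stress pools. Hsp90b1, its Hsp90, read 317, 304 and 283 CPM against 287, 293 and 318 CPM. The log2 fold changes were -0.03 ± 0.04 (interval -0.11 to 0.06, adjusted p = 0.832) and -0.01 ± 0.05 (interval -0.14 to 0.12, adjusted p = 0.966). Over 14 members the log2 fold change ran from -0.08 to 0.10, and all 14 intervals lay inside -0.5 to 0.5. Only Dnajb9, a J protein induced by stress of this compartment, was without overlap, at 42.9, 42.5 and 41.6 CPM against 46.1, 43.6 and 44.5 CPM (log2 fold change 0.08 ± 0.03, adjusted p = 0.456). Dnajc3, which holds an element in its promoter like those of Hspa5 and Hsp90b1 above, had a log2 fold change of 0.09 ± 0.04 with overlapping pools (adjusted p = 0.490).

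In mitochondria, Hspe1 caps the chaperonin ring made by Hspd1. Hspe1 read 59.3, 60.1 and 57.7 CPM in control pools and 53.6, 55.5 and 55.6 CPM in stress pools, lower without overlap. Its log2 fold change was -0.10 ± 0.03 (interval -0.18 to -0.03, adjusted p = 0.366). Hspd1, which shares its promoter with Hspe1, read 335, 337 and 313 CPM against 307, 313 and 326 CPM, with overlap (log2 fold change -0.06 ± 0.04, adjusted p = 0.630). Hspa9, the mitochondrial Hsp70, read 279, 278 and 278 CPM against 283, 278 and 283 CPM, the smallest spread within groups among the 25 members above 100 CPM. Dnajc19 and Dnajc15, J proteins of the import motor, were higher without overlap, with log2 fold changes of 0.11 ± 0.05 and 0.07 ± 0.04 (adjusted p = 0.493 and 0.565).

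The symbol rule also took Hspbap1, a protein named for its binding to Hspb1, and Hspb11, a part of the ciliary transport machinery. Hspbap1 read 11.2, 11.3 and 12.0 CPM in control pools and 13.2, 13.1 and 13.1 CPM in stress pools. The groups were apart, and the log2 fold change was 0.19 ± 0.05 (interval 0.06 to 0.31, adjusted p = 0.337). Hspb11 read 7.96, 7.89 and 7.42 CPM against 8.20, 7.25 and 7.42 CPM.

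Next, 11 members known to be induced by heat were set side by side across pools: Hspa1a, Hspa1b, Hspa8, Hspb1, Hsph1, Hsp90aa1, Hspd1, Hspe1, Dnaja1, Dnajb1 and Bag3. None of the 11 passed edgeR's test, 5 log2 fold changes were positive and 6 negative, and the median was -0.03. The pools within a group differed along this list. Control pool 2 was the highest control for 9 of the 11, all but Bag3 and Hspb1, where 33.0% of all genes have their highest control value in that pool. Stress pool 3 was the highest stress pool for 8 of the 11, all but Hspa1a, Hspb1 and Bag3, against 36.9% of all genes. Of 7 genes that respond to tissue handling, Atf3 alone passed the test and was lower in stress pools (28.1, 23.1 and 30.9 CPM against 12.4, 11.0 and 14.6 CPM, adjusted p = 0.0443). Leaving out any of the 6 pools raised its adjusted p to between 0.0698 and 0.277. Dusp1 was also lower without overlap (log2 fold change -0.17 ± 0.06, adjusted p = 0.413). Junb lay the other way without overlap (log2 fold change 0.26 ± 0.11, adjusted p = 0.446), and of the 7 log2 fold changes 2 were positive and 5 negative. The summed level of the 7 was 83.6 to 104 CPM in control pools and 63.2 to 85.1 CPM in stress pools. Their part in the levels of the inducible members was not tested.

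**Figure D5:**
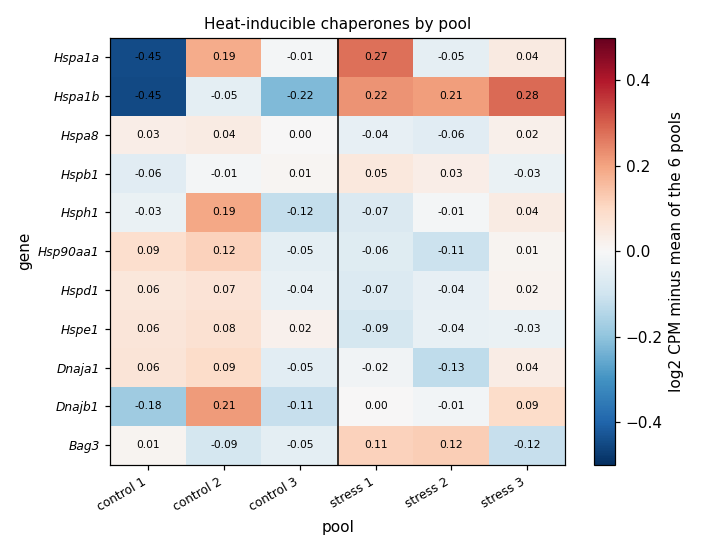
Log2 CPM of 11 heat-inducible members in each pool minus the mean of the 6 pools, as colour and number, with pools in columns and a line between control and stress. Hspa1b runs from -0.45 in control pool 1 to 0.28 in stress pool 3, and 7 rows are reddest in control pool 2.

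Other genes of protein folding, outside the symbol rule, were counted from lists in the same fit. None of the 14 genes of the cytosolic chaperonin TRiC and its feeder prefoldin passed, 13 of 14 log2 fold changes were negative and the median was -0.05. Cct5 read 247.6, 246.7 and 240.4 CPM in control pools and 228.5, 231.2 and 233.3 CPM in stress pools, without overlap (log2 fold change -0.08 ± 0.03, adjusted p = 0.378). Cct3 and Pfdn4 were also lower without overlap, by -0.08 ± 0.03 and -0.11 ± 0.04 (adjusted p = 0.378 and 0.414). In all, 6 of the 14 were lower without overlap and 0 were higher, where 8.76% of all genes were lower and 9.33% higher without overlap. The log2 fold changes were thus nearly all negative and at most 0.11 in size.

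Of 16 partners of Hsp90 and Hsp70, none passed and the median was -0.01. Stub1, the ubiquitin ligase that marks Hsp70 clients, read 53.3, 54.4 and 54.6 CPM in control pools and 59.5, 60.7 and 58.0 CPM in stress pools, higher without overlap (log2 fold change 0.14 ± 0.03, adjusted p = 0.273). Cryab, a small heat shock protein under another symbol that muscle also makes, was lower without overlap, with a log2 fold change of -0.22 ± 0.07 (edgeR adjusted p = 0.354). DESeq2 called it (adjusted p = 0.0373) and no other gene of the 4 lists. Control pool 3 was its highest control, and without that pool the log2 fold change was -0.17 ± 0.07 (edgeR adjusted p = 0.551). Ahsa1, the activator of the Hsp90 ATPase, was at -0.08 ± 0.03 (adjusted p = 0.437).

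None of 21 genes of folding and the unfolded protein response in the endoplasmic reticulum passed, and the median was 0.00. Herpud1 (0.15 ± 0.04, adjusted p = 0.294) and Sdf2l1 (0.26 ± 0.09, adjusted p = 0.378) were higher without overlap, and Ddit3 was lower (-0.16 ± 0.05, adjusted p = 0.318). Of 12 mitochondrial folding and protease genes none passed and the median was -0.02. Grpel1 and Grpel2, the paired exchange factors of Hspa9, lay in opposite directions at -0.16 ± 0.04 and 0.11 ± 0.04 (adjusted p = 0.298 and 0.383), each without overlap. Clpb, a mitochondrial disaggregase, was at 0.14 ± 0.05 (adjusted p = 0.388).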

How the data were processed

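Poly-A RNA of 6 pools was sequenced as stranded paired-end libraries, per the labels' protocols. The deposited values were raw counts per gene symbol made by the authors, who name FastQC, STAR 2.4, HTSeq 0.9.1, GRCm39 and mm10, per the submitters' processing notes. Neither the build used nor the counter's strand setting is given, and reads of overlapping or antisense genes may therefore be mixed. Reads that the counter did not assign to a gene, for any reason (15.3% to 16.2% of a file), were left out. Depth was 51.7 to 87.4 M gene counts, and 3 pools per group limit the precision. Counting error was not set apart from the spread between pools. It can matter near 10 CPM, where Hspbap1, for example, had 674 to 1050 counts per pool. No libraries agreed within sampling noise (chi-square per degree of freedom 10.98 to 36.41 over 15 pairs).

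Counts were fitted over all genes with edgeR 4.0.16 in R 4.3.3 (limma 3.58.1; TMM, filterByExpr minimum count 10, quasi-likelihood test of stress against control, Benjamini-Hochberg over 20146 genes). Levels are CPM with TMM factors. The 95% intervals and standard errors come from that fit. Levels per kb use the longest GENCODE M21 transcript. Promoter windows come from RefSeq (GRCm38.p6), matched by symbol; 17 members were not matched. Near-copies were found with minimap2 2.31-r1302 (at least 90% identity over 200 bases). Of the members, 14 matched a pseudogene transcript, among them Hspa8, Hsp90aa1, Hsp90ab1, Hspa9 and Hspd1, so their reads may be split or missing.

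The members, roles, lists and tests were chosen with earlier results of these data known. Values in all pools are given for the 12 members of smallest p, the heat-inducible list and the 2 highest members of each role. Dnajb6, Hspb6, Hspb2 and the other members without overlap were added after values were seen. Up to 3 genes per pathway list were named.

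Deviations from the group mean correlated at 0.40, 0.22 and 0.17 between same-numbered pools over 15240 genes. Pairs with different numbers had -0.33 to 0.14, the last for control pool 3 with stress pool 2, so only the first pair stood well apart. A fit with the replicate number as a block was run. Other alternatives were DESeq2 1.42.0, its size factors, other filters, a GC content and length correction (mgcv 1.9.3, values for 95.2% of tested genes and all 80 members), leaving out each pool and summing Hspa1a with Hspa1b. On simulated counts for this comparison (19824 genes) the fit recovered 47% of changes of 0.5 and 90% of changes of 1 on the log2 scale. It made 13 false calls. Changed genes were drawn only from those averaging above 1 CPM, and pools were simulated without shared deviations. The recovery thus does not cover members below that level or smaller changes.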

Additional observations from a re-analysis of the deposited data

How the results depend on the processing

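Every alternative fitted with edgeR called 0 of the 79 members, with a smallest adjusted p of 0.167. DESeq2 called 1, Hspa1b, of the 73 members to which it gave an adjusted p. Over the whole table the count of genes called was 26, 295 with DESeq2, 49 with no filter on low counts and 2 to 14 with a pool left out. With the replicate block 0 members and 22 genes of the table were called, and the block changed no call of a member. Of 34 members followed through all alternatives, 25 never changed direction. The cause of the changes was not tested.

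Of the 79 tested members, 22 to 30 were without overlap when a pool was left out, against 15 with all pools. Over all genes the share was 25.9% to 31.2%, against 18.1% with all pools. The fewest were 22 of 79 members without stress pool 1 (27.4% of all genes). The most were 30 of 79 members without stress pool 3 (27.8% of all genes). Leaving out a pool gave role medians of -0.03 to 0.04 for Hsp70 relatives and Hsp110, 0.01 to 0.04 for cytosolic Hsp70, 0.05 to 0.10 for the members matched by symbol only and -0.06 to -0.0043 for class C J proteins. With the GC content and length correction, alone or with the replicate block, the medians were 0.06 for cytosolic Hsp70 and -0.01 for class C J proteins. That correction also turned Hspa4 to -0.0009 (-0.0004 with the block), Hspb1 to -0.01 (-0.01 with the block) and Bag6 to -0.0007. Sizes moved both ways under it. Hspb8 went from -0.09 to -0.05 (edgeR adjusted p = 0.779) and Dnajc13 from 0.13 to 0.07. Bag3 went from 0.09 to 0.12 and Hspa1b from 0.47 to 0.50. Leaving out a pool moved the log2 fold change between -0.05 and 0.11 for Bag6, -0.03 and 0.17 for Dnajb1, -0.05 and 0.02 for Hsf2, -0.06 and 0.03 for Hsp90b1, and -0.02 and 0.03 for Hspa4. The range was -0.09 to 0.01 for Hspb11, -0.10 to 0.06 for Hsph1 and -2.92 to 0.0008 for Hspb7, the last without control pool 3. The adjusted p of Hspa1b ran from 0.325 to 0.560 with a pool left out and was 0.222 with the replicate block. Depth limits the 6 members below 1 CPM: 1 was not tested and the 95% intervals of the others reached beyond 0.5 on the log2 scale.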
